A study of Mus musculus with 6 samples.

Results

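Glutathione peroxidases and selenoprotein genes were followed across the 3 conditions of an RNA-seq experiment on mouse osteoblasts. The genes were named as a list, with earlier results of these data known, and taken by symbol from the deposited gene table with no threshold on their values: Gpx1, Gpx3, Gpx4, Gpx7, Gpx8, Selenop, Selenow, Txnrd2, Sephs2 and Secisbp2. Of these 10 genes, 9 were found among the 21686 genes of the table, and Gpx3 was not analysed here. The cells were MC3T3-E1 Subclone 14, a single clone of an osteoblast line derived from mouse skull bone, so the treated cells share a genetic background. The control group received 100 µL PBS, the dexamethasone group received 10 µM dexamethasone, and the dexamethasone + EPC-EVs group received 10 µM dexamethasone plus 100 µg of extracellular vesicles from mouse bone marrow endothelial progenitor cells (EPCs-exo in the labels). All groups were treated for 72 hours, and each had 2 libraries. Cell type and time are those of the sample labels, whereas the design text of the series names fibroblasts and a shorter treatment. Per the study, the progenitor cells came from Kunming mice, and extracellular vesicles hold mRNA. Whether RNA of the vesicles added to the counts was not tested. No group received vesicles without dexamethasone, so the vesicles were compared only on a dexamethasone background. The study described the 2 libraries of a group as biological replicates, but the labels do not name separate cultures, so p-values measure only the spread between these libraries, which may be technical.

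Glutathione peroxidases reduce hydrogen peroxide and lipid hydroperoxides, and most of them use glutathione as the electron donor. In several of them the catalytic residue is selenocysteine, which is inserted at an in-frame UGA codon that would otherwise end translation. Reading that codon needs a hairpin in the 3′ untranslated region of the mRNA (the SECIS element), the protein that binds it (Secisbp2), and selenium activated by selenophosphate synthetase (Sephs2), which is itself a selenoprotein. GPX4 reduces phospholipid hydroperoxides in membranes and is the central inhibitor of ferroptosis, the iron-dependent form of cell death that the study addressed in steroid-treated osteoblasts.

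The catalytic codons are shown because they divide the genes into those whose protein needs selenium and those whose protein does not. Each line gives coding bases 5′ to 3′ on the gene's own strand from GENCODE vM21 transcripts (GRCm38), with the selenocysteine codon, or the cysteine codon aligned to it, in capitals.
Gpx1: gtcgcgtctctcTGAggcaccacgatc
Gpx4: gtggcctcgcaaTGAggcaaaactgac
Gpx7: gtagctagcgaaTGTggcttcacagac
Gpx8: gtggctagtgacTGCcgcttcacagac
Selenop: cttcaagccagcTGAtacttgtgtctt
Selenow: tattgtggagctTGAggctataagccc
Txnrd2: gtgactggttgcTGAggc
Sephs2: ggcatgaagggcTGAggctgcaaggtc

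The TGA of Gpx1 is codon 47 of 201, in exon 1 of 2, at chr9:108339451-108339453 on the plus strand. That of Gpx4 lies at chr10:80054737-80054739 on the plus strand and is codon 73 of 197, 129 of 253 or 33 of 157 in the 3 annotated coding transcripts. In Gpx7 and Gpx8 the aligned codon encodes cysteine. It is codon 56 of 186 in Gpx7 (chr4:108403430-108403432, minus strand) and codon 79 of 209 in Gpx8 (chr13:113045661-113045663, minus strand), in exon 2 of 3 of both. Over the aligned codons, the encoded Gpx7 protein was 44.8% identical to that of Gpx4 and 39.0% identical to that of Gpx1, and for Gpx8 the shares were 36.6% and 30.8%.

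Selenop, the secreted selenium carrier, has 10 annotated selenocysteine codons, and the one shown is the first of them, codon 59 of 380 (chr15:3274848-3274850, plus strand). In Selenow, a small cytosolic protein of the thioredoxin-like fold, the TGA is codon 13 of 88, in exon 2 of 6 (chr7:15920464-15920466, minus strand). In Txnrd2, the mitochondrial thioredoxin reductase, it is the next to last coding codon, number 526 of 527 or, in 2 of the 4 annotated transcripts that hold it, 504 of 505 and 495 of 496 (chr16:18477772-18477774, plus strand), so the line ends with the last coding codon. In Sephs2, a gene with a single exon, it is codon 63 of 452 (chr7:127273731-127273733, minus strand). Secisbp2 (chr13:51651697-51684044, plus strand) has no annotated selenocysteine codon.

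The libraries differed in ways that bear on all the values below. Counts summed to 5146760 and 6126888 in the control libraries, 6575094 and 6583735 with dexamethasone, and 12864009 and 13182014 with dexamethasone + EPC-EVs, so the last group was measured with more reads. Levels are given as CPM, the counts scaled to a library total of 1000000 after TMM normalization, which evens out differences in composition between libraries, and a count of 3 corresponds to 0.228 to 0.583 CPM of the unscaled totals. Mitochondrially encoded genes took 7.46% and 8.62% of control counts, 5.55% and 5.78% of dexamethasone counts, and 0.465% and 0.727% with the vesicles. The osteoblast markers were all in the table (12 of 12), and 7 had at least 10 counts in every library, but Alpl and Bglap were at 0 in dexamethasone replicate 2. Their summed level was 16089 to 17641 CPM in control, 17330 to 17600 CPM with dexamethasone and 23126 to 29120 CPM with the vesicles. The sum joins markers that differ in direction: Col1a1, Col1a2 and Sparc were higher in both vesicle libraries than in any other, whereas Spp1 (mean 10716 CPM with dexamethasone and 5199 CPM with the vesicles) and Twist1 (42.8 and 33.6 CPM) were lower. Of the endothelial markers 7 of 9 were in the table, at 382.0 to 420.8, 366.2 to 373.7 and 238.8 to 288.3 CPM in the same order, nearly all of it Cd34, and Cdh5 was at 0 in all but 1 library. Of the blood cell markers 5 of 8 were in the table, at 4.01 to 6.26, 5.17 to 8.12 and 7.24 to 38.0 CPM, and the highest of these sums came from Csf1r, with 36.4 CPM in dexamethasone + EPC-EVs replicate 2. Adipocyte markers (4 of 5 in the table) summed to at most 10.0 CPM and muscle markers (2 of 4) to at most 8.85 CPM in any library. The part of depth, mitochondrial share and these markers in the results was not tested, beyond the refit without mitochondrially encoded genes given below. In bulk RNA, fewer cells of a type and less RNA per cell cannot be told apart.

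**Figure D1:**
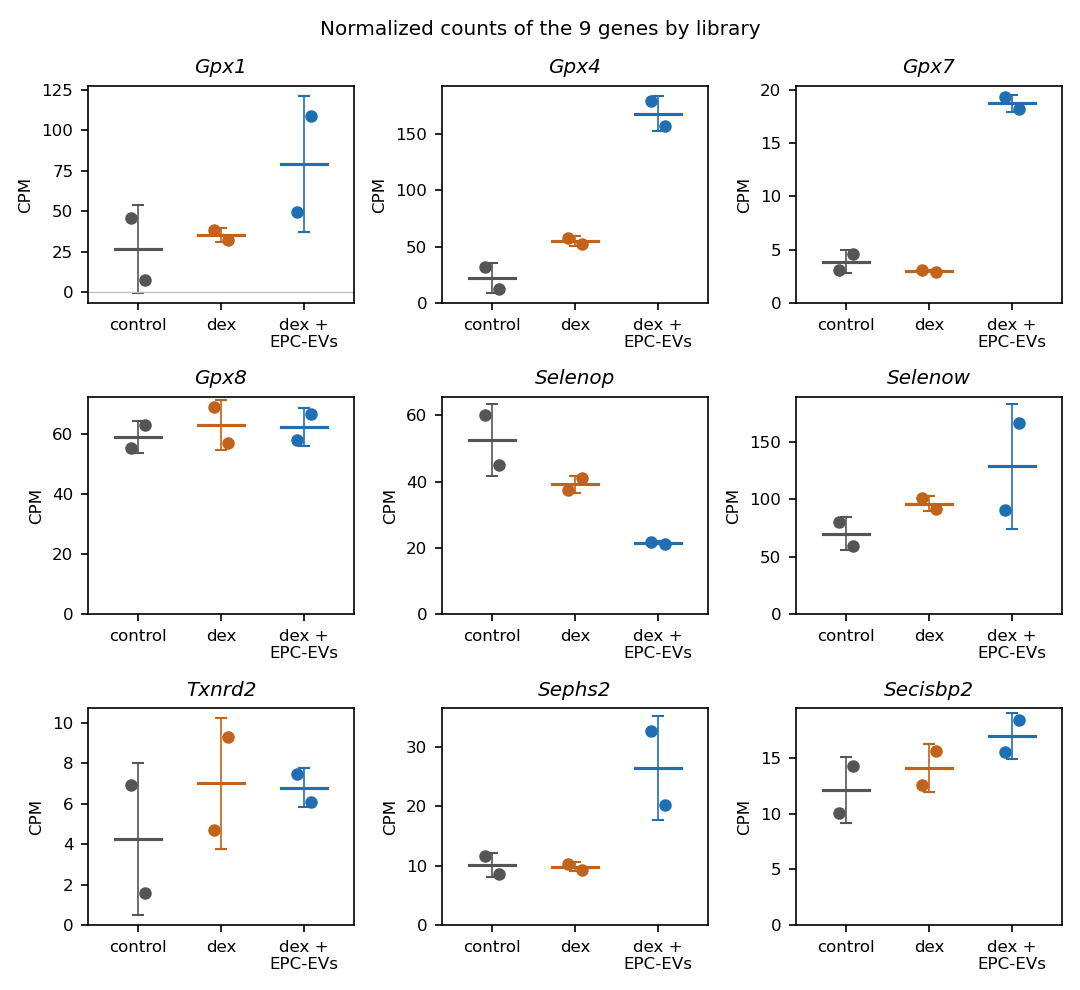
CPM (vertical axes, from 0) of each gene in each library, with points for libraries, horizontal lines for group means, error bars of 1 SD (n = 2) and dex for dexamethasone. The Gpx4 and Gpx7 points with EPC-EVs lie above all others, the Selenop points lie lowest there, and the Gpx1 control points are far apart (45.9 and 7.42 CPM).

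With dexamethasone + EPC-EVs, Gpx4, Gpx7, Gpx1 and Sephs2 rose and Selenop fell against dexamethasone alone, whereas Gpx8, Selenow, Txnrd2 and Secisbp2 did not pass the test. Against control, Gpx4, Gpx7 and Sephs2 rose and Selenop fell. None of the 9 genes passed the test for dexamethasone against control. Each comparison was fitted with edgeR across all genes, and genes with an adjusted p under 0.05 count as called. The comparisons share libraries pairwise, so their values are given side by side and are not independent.

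The glutathione peroxidases differed most from each other. Gpx4 (ENSMUSG00000075706.10, chr10:80047166-80056439, plus strand) was measured at 31.6 and 12.4 CPM in the control libraries, 57.8 and 51.95 CPM with dexamethasone, and 179.6 and 157.3 CPM with dexamethasone + EPC-EVs. The 3 groups did not overlap at any point, with control lowest and the vesicle group highest. The mean level was 22.02 ± 13.55 CPM (SD, n = 2) in control, 54.9 ± 4.17 CPM with dexamethasone and 168.5 ± 15.7 CPM with the vesicles.

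Against dexamethasone, Gpx4 was 3.03-fold higher with EPC-EVs, a log2 difference of 1.60 (SE 0.152, edgeR adjusted p = 1.51e-05). Against control it was 7.49-fold higher, a log2 difference of 2.90 (SE 0.377, edgeR adjusted p = 0.000979). Both calls held in all 16 alternative fits, with log2 differences of 0.84 to 1.71 and 1.80 to 3.78 respectively. For dexamethasone against control the log2 difference was 1.304 (SE 0.367), but the gene did not pass (edgeR adjusted p = 0.291, unadjusted p = 0.00476). DESeq2 called it narrowly (adjusted p = 0.0481), and edgeR called it when control replicate 1 was left out (log2 difference 2.14, adjusted p = 4.79e-07), a fit in which the single control library is assumed to vary like the others. Reads of Gpx4 could also match its pseudogene Gpx4-ps2. That copy held 0 counts in the control and dexamethasone libraries and 5 and 4 with the vesicles. These counts do not show how many reads match both copies, which was not tested.

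Gpx1 (ENSMUSG00000063856.7, chr9:108338903-108340343, plus strand), the abundant cytosolic glutathione peroxidase, gave 45.9 and 7.42 CPM in control, 38.4 and 32.0 CPM with dexamethasone, and 49.5 and 108.8 CPM with dexamethasone + EPC-EVs. The control libraries differed 6.19-fold and enclosed both dexamethasone libraries, and the vesicle libraries differed 2.20-fold. Gpx1 was thus the least reproducible of the 9 genes in control. With the vesicles its log2 difference was 1.15 against dexamethasone (SE 0.319, edgeR adjusted p = 0.0157) and 1.54 against control (SE 0.671, adjusted p = 0.105).

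The Gpx1 call against dexamethasone held in 8 of 16 alternative fits. It was lost, for example, when dexamethasone + EPC-EVs replicate 2 was left out (log2 difference 0.49, edgeR adjusted p = 0.148), the library that also held the high Csf1r count, and when either dexamethasone library was left out (1.299, adjusted p = 0.0861 without replicate 1, and 1.04, adjusted p = 0.147 without replicate 2). For dexamethasone against control the sign depended on 1 library. The log2 difference was 0.39 (SE 0.573, edgeR adjusted p = 0.848) with all libraries, 2.24 (adjusted p = 2.16e-05) without control replicate 1 and -0.37 (adjusted p = 0.607) without control replicate 2. Against control, the vesicle group was called for Gpx1 when control replicate 1 was left out (3.43, adjusted p = 0.00469) or dexamethasone + EPC-EVs replicate 1 was (2.02).

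Gpx7 and Gpx8, the peroxidases with cysteine in place of selenocysteine, both reside in the endoplasmic reticulum, where they take part in oxidative protein folding. Gpx7 (ENSMUSG00000028597.11, chr4:108400390-108406961, minus strand) was low without vesicles, with 3.13 and 4.61 CPM in control and 3.10 and 2.95 CPM with dexamethasone, and stood at 19.3 and 18.2 CPM with dexamethasone + EPC-EVs. The vesicle libraries lay far above all the others, and behind the low values stood only 19 to 23 counts a library. Gpx7 was 6.09-fold higher with the vesicles than with dexamethasone (log2 difference 2.61, SE 0.376, edgeR adjusted p = 0.00026) and 4.78-fold higher than in control (2.26, SE 0.435, adjusted p = 0.00487). This was the largest difference among the 9 genes against dexamethasone. The call against control was lost with the GC and length trend taken out (1.06, edgeR adjusted p = 0.123). Dexamethasone against control gave a log2 difference of -0.36 (SE 0.822, edgeR adjusted p = 0.912).

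Gpx8 (ENSMUSG00000021760.4, chr13:113042753-113046410, minus strand) was at 55.1 and 62.8 CPM in control, 68.9 and 57.0 CPM with dexamethasone, and 57.8 and 66.7 CPM with dexamethasone + EPC-EVs. All 3 groups overlapped. The log2 differences were 0.09 (SE 0.217) for dexamethasone against control, -0.03 (SE 0.181) for vesicles against dexamethasone and 0.06 (SE 0.221) for vesicles against control, with edgeR adjusted p of 0.917, 0.902 and 0.858. The gene overlaps Cdc20b on the other strand, which was not analysed here.

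Among the other selenoproteins, Selenop (ENSMUSG00000064373.12, chr15:3268547-3280508, plus strand) gave 60.25 and 44.9 CPM in control, 37.3 and 41.0 CPM with dexamethasone, and 21.8 and 21.25 CPM with dexamethasone + EPC-EVs. No groups overlapped, and the order from control down to the vesicle group was the reverse of that of Gpx4. Selenop fell with the vesicles by 0.88 on the log2 scale against dexamethasone (SE 0.218, edgeR adjusted p = 0.00731) and by 1.31 against control (SE 0.266, adjusted p = 0.00612). Without dexamethasone replicate 2 the former call was lost (-0.80, edgeR adjusted p = 0.0589), and both were lost with the GC and length trend taken out (-0.43, adjusted p = 0.147, and -0.77, adjusted p = 0.0569). The dexamethasone libraries were below control by 0.43 on the log2 scale, which did not pass (SE 0.244, edgeR adjusted p = 0.535). Ccdc152, which overlaps Selenop on the other strand, had 1 count in all libraries together.

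Selenow (ENSMUSG00000041571.9, chr7:15917208-15922402, minus strand) gave 80.3 and 59.8 CPM in control, 100.9 and 91.8 CPM with dexamethasone, and 90.5 and 167.2 CPM with dexamethasone + EPC-EVs. The control libraries were the lowest, but the vesicle libraries differed 1.85-fold and enclosed both dexamethasone libraries. No comparison passed: the log2 differences were 0.45 (SE 0.207), 0.40 (SE 0.243) and 0.86 (SE 0.308) for dexamethasone against control, vesicles against dexamethasone and vesicles against control, with edgeR adjusted p of 0.459, 0.215 and 0.0578. Against dexamethasone the value was 0.80 (adjusted p = 0.000336) when replicate 1 of the vesicle group was left out and -0.09 when replicate 2 was. Against control it was called in 5 of 16 alternative fits, and dexamethasone against control was called only without control replicate 1 (0.69, adjusted p = 0.013).

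Txnrd2 (ENSMUSG00000075704.16, chr16:18426384-18479073, plus strand) was low, at 6.91 and 1.60 CPM in control, 4.72 and 9.30 CPM with dexamethasone, and 7.47 and 6.10 CPM with dexamethasone + EPC-EVs. All pairs of groups overlapped, and both vesicle libraries lay inside the range of the dexamethasone libraries. The log2 differences were 0.70 (SE 0.747), -0.07 (SE 0.471) and 0.64 (SE 0.711) in the order used for Selenow, with edgeR adjusted p of 0.768, 0.924 and 0.517. Without control replicate 1, the vesicle group was called against control (2.09, adjusted p = 0.0346).

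Of the genes that make selenoproteins, Sephs2 (ENSMUSG00000049091.6, chr7:127271879-127274055, minus strand) gave 11.5 and 8.63 CPM in control, 10.3 and 9.30 CPM with dexamethasone, and 32.6 and 20.25 CPM with dexamethasone + EPC-EVs. Control and dexamethasone overlapped and the vesicle libraries lay above both, although they differed 1.61-fold from each other. Sephs2 rose with the vesicles 2.65-fold against dexamethasone (log2 difference 1.41, SE 0.314, edgeR adjusted p = 0.00415) and 2.58-fold against control (1.37, SE 0.378, adjusted p = 0.0229). Dexamethasone against control gave -0.04 (SE 0.455, edgeR adjusted p = 0.988). The call against dexamethasone was lost by a small margin without dexamethasone replicate 2 (1.34, adjusted p = 0.0507). Leaving out dexamethasone + EPC-EVs replicate 1 ended both calls, with 1.04 (edgeR adjusted p = 0.0637) against dexamethasone and 1.004 (adjusted p = 0.251) against control. The call against control was also missed by limma on log2(FPKM + 0.1) (adjusted p = 0.0648).

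Secisbp2 (ENSMUSG00000035139.14), the SECIS-binding protein, gave 10.0 and 14.2 CPM in control, 12.5 and 15.65 CPM with dexamethasone, and 15.5 and 18.4 CPM with dexamethasone + EPC-EVs. The vesicle libraries lay above the control libraries but overlapped dexamethasone. The log2 differences of 0.21 (SE 0.417), 0.25 (SE 0.302) and 0.46 (SE 0.375) did not pass, with edgeR adjusted p of 0.894, 0.550 and 0.364.

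**Figure D2:**
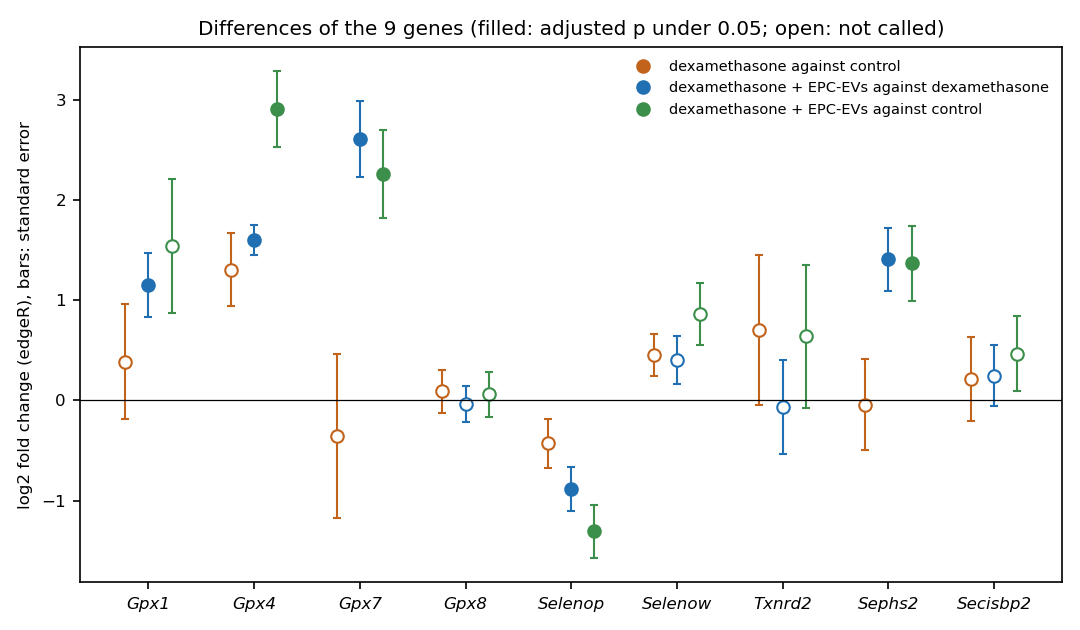
Log2 fold changes of the 9 genes (vertical axis; points are edgeR estimates, bars are 1 SE), with a colour for each comparison. Filled points were called at an adjusted p under 0.05: none for dexamethasone against control, 5 for EPC-EVs against dexamethasone and 4 for EPC-EVs against control.

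The counts were read against those over all genes. For dexamethasone against control, 0 of the 9 genes were called by edgeR, beside 0.0544% of the 12879 genes tested (0.0155% higher and 0.0388% lower). At an unadjusted p under 0.05 it was 1 of 9, Gpx4, beside 10.9%, and DESeq2 called 1. Libraries did not overlap for 2 genes that were higher (Gpx4 and Selenow) and 2 that were lower (Gpx7 and Selenop), beside 22.6% of all genes higher and 21.3% lower, 43.9% in either direction, so that share is close to the background.

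For EPC-EVs against dexamethasone, 5 of 9 were called, 4 higher and 1 lower, beside 39.8% of 13556 genes (20.9% higher and 18.9% lower). For EPC-EVs against control, 4 of 9 were called, 3 higher and 1 lower, beside 36.4% of 13511 genes (19.1% higher and 17.2% lower). The shares of called genes were thus not far from those over all genes. Libraries did not overlap for 5 of 9 genes against dexamethasone (4 higher and 1 lower, beside 37.3% and 35.2% of all genes, 72.5% in all). Against control they did not overlap for 7 of 9 (6 higher and 1 lower, beside 38.2% and 34.8%, 73% in all). At an unadjusted p under 0.05 it was 5 of 9 against dexamethasone (all genes 48.4%) and 6 of 9 against control (all genes 46.7%). The median log2 difference of the 9 genes was 0.21, 0.40 and 0.86 in the 3 comparisons, beside 0.01, 0.01 and 0.02 over all genes tested. The calls numbered 0, 5 and 4 also in the refit without mitochondrially encoded genes.

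Levels were compared between genes as FPKM (fragments scaled to gene length and library total), in which the authors used 1 length per gene. The order below holds for that length. Selenow was highest in every group, with a group mean of 93.4, 134.8 and 172.3 FPKM in control, dexamethasone and dexamethasone + EPC-EVs. Txnrd2 was lowest, at 0.955, 1.64 and 1.52 FPKM. Between them the order changed: Gpx4 ranked 5 of 9 in control at 12.6 ± 7.91 FPKM (SD, n = 2), 3 of 9 with dexamethasone at 32.8 ± 2.46 FPKM and 2 of 9 with the vesicles at 96.3 ± 9.44 FPKM.

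Selenop moved the other way, from 18.2 ± 4.03 FPKM in control to 14.2 ± 0.959 with dexamethasone and 7.46 ± 0.167 with the vesicles, and from rank 4 in control to rank 7 with the vesicles. Gpx8 stayed at 56.7, 63.7 and 60.2 FPKM. In control, Gpx1 and Selenop, Selenop and Gpx4, and Gpx7 and Secisbp2 were neighbours whose libraries overlapped, so their order there is not resolved. With the vesicles the same holds for Gpx8 and Gpx1 and for Gpx7 and Sephs2, and with dexamethasone no neighbours overlapped.

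The order depends on the length chosen. The authors' length is 1724 bases for Gpx4 and 2842 for Selenop, against a mean of 678 and 994 over their annotated transcripts, while for Selenow both are 736. Per kilobase of mean transcript length, an alternative chosen after seeing the data, Gpx4 stood above Selenow with the vesicles (248.5 ± 23.2 and 175.1 ± 73.7 CPM per kilobase, SD, n = 2). Selenow remained at rank 1 in control and with dexamethasone, and Txnrd2 was at rank 7 rather than 9 with dexamethasone. Gpx4 then ranked 4, 2 and 1 and Selenop 3, 5 and 6 in control, dexamethasone and dexamethasone + EPC-EVs, so Gpx4 climbed and Selenop descended under either length.

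**Figure D3:**
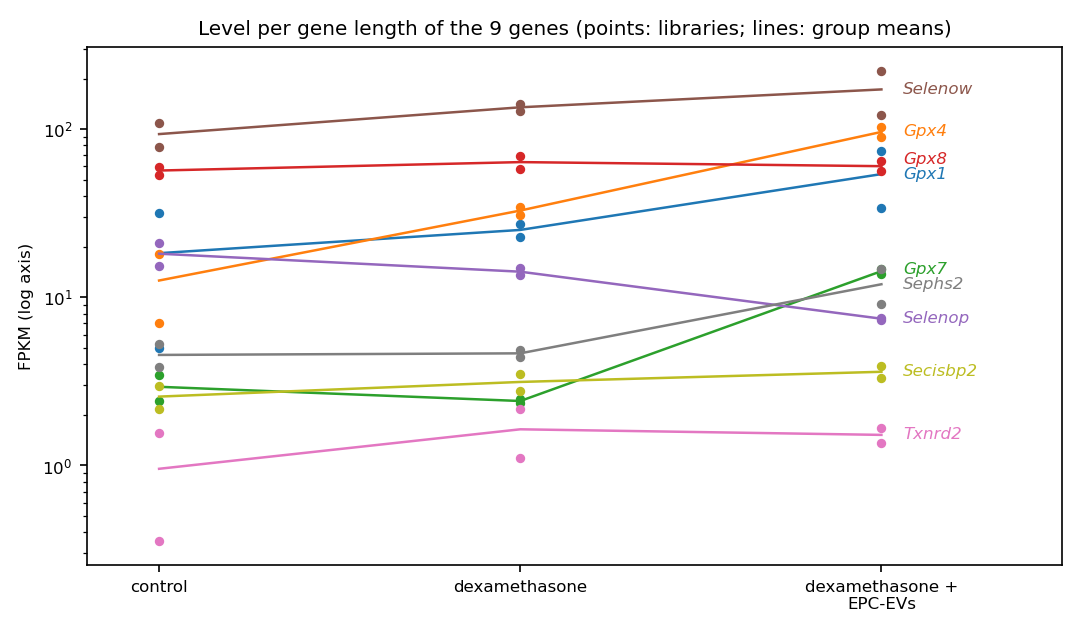
Levels per gene length (FPKM, log axis) of the 9 genes; points are libraries, and lines join the group means of a gene over the 3 groups. With the authors' lengths, Gpx4 and Gpx7 climb in the order with EPC-EVs while Selenop descends and Gpx8 stays level.

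The GC content of the transcripts moved with these results. Across the genes, the log2 difference correlated with GC content at a Spearman rho of 0.411 for dexamethasone against control, 0.485 for vesicles against dexamethasone and 0.573 for vesicles against control, and the difference between the control replicates did so at 0.311. The values are across 13472 genes, which are not independent replicates. Gpx4 (58.32% GC), Gpx7 (58.14%), Selenow (57.2%) and Gpx1 (56.37%) are GC-rich, whereas Gpx8 (43.24%) and Selenop (45.29%) lie below the median of 49.52% over all genes. Txnrd2 (54.75%), Secisbp2 (52.21%) and Sephs2 (52.14%) also lie above that median. Their log2 differences for vesicles against dexamethasone were -0.07 (SE 0.471), 0.25 (SE 0.302) and 1.41 (SE 0.314).

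The fit was therefore repeated with a loess trend on the GC content and length of transcripts removed. Against dexamethasone, Gpx4 was then at 0.84 (edgeR adjusted p = 0.00115), Gpx7 at 1.86 (adjusted p = 0.00307) and Sephs2 at 1.25 (adjusted p = 0.0106), and all 3 were still called. Gpx1 (0.58, adjusted p = 0.222) and Selenop (-0.43, adjusted p = 0.147) were not. Gpx8, which overlapped in CPM, was called higher at 0.68 (adjusted p = 0.0131).

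Against control with the trend removed, Gpx4 (1.80, edgeR adjusted p = 0.000676), Gpx8 (0.96, adjusted p = 0.00715) and Sephs2 (1.09, adjusted p = 0.0485) were called higher. Gpx7 (1.06, adjusted p = 0.123) and Selenop (-0.77, adjusted p = 0.0569) were not called, and Selenow turned to -0.16. For dexamethasone against control none of the 9 was called, and Gpx4 stood at 0.96 (adjusted p = 0.233). The genes called among the 9 numbered 0, 4 and 3, beside 0.241%, 31.7% and 27.6% of all genes. Gpx4 and Sephs2 were called against both groups with and without the trend, but Sephs2 against control only narrowly: it was lost with trend removal and a replicate block together (edgeR adjusted p = 0.0604), a fit that called Gpx4 and Gpx8 alone among the 9. A change tied to GC content from any source is removed along with the trend.

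**Figure D4:**
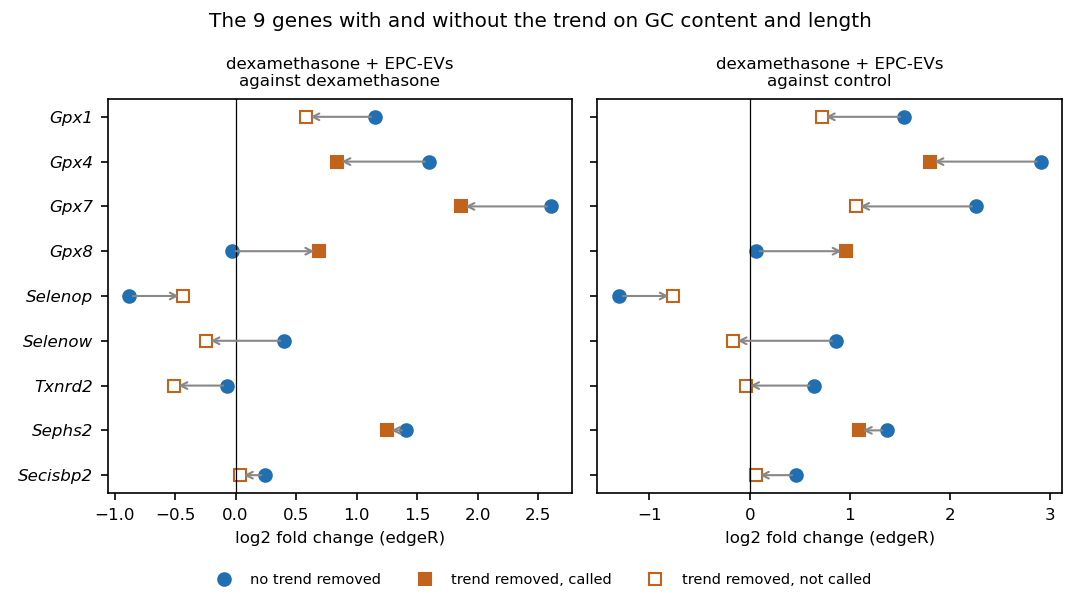
Log2 fold changes of the 9 genes without (circles) and with (squares) removal of the loess trend on transcript GC content and length, for EPC-EVs against dexamethasone (left) and against control (right). Filled squares were called after removal; Gpx4 drops from 1.60 to 0.84 on the left, while Gpx8 moves from -0.03 to 0.68.

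Other selenoprotein genes of the mouse were looked up as a list. Of 16 named, 14 were in the table, and Dio1 and Selenov were not analysed here. The other glutathione peroxidases, Gpx2 (a selenoprotein), Gpx5 and Gpx6, formed a list of 3 that was likewise not analysed here. No gene of the list was called for dexamethasone against control (0 of 13 tested, beside 0.0544% of all genes; 1 had an unadjusted p under 0.05, beside 10.9%), 5 rose and 1 fell of 13 tested for vesicles against dexamethasone, and the same 5 rose and the same 1 fell of 14 tested against control. Over all genes tested, 20.9% were called higher and 18.9% lower against dexamethasone, and 19.1% and 17.2% against control. Median log2 differences of the list were 0.24, 0.49 and 0.80, beside 0.01, 0.01 and 0.02 over all genes.

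The genes that rose were Selenom, Msrb1, Selenon, Selenoo and Selenos. Selenom, a thioredoxin-like protein of the endoplasmic reticulum, was at 25.2 and 23.7 CPM in control, 27.15 and 40.7 CPM with dexamethasone and 104.7 and 132.0 CPM with the vesicles (log2 difference against dexamethasone 1.78, SE 0.217, edgeR adjusted p = 8.01e-05). Msrb1, which repairs oxidized methionine, gave 20.6 and 16.45 CPM, 23.5 and 21.55 CPM, and 72.6 and 69.1 CPM in that order (1.64, SE 0.194, edgeR adjusted p = 6.75e-05). In both, the vesicle libraries lay above all others.

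The differences against dexamethasone were 1.03 (edgeR adjusted p = 0.000343) for Selenon, which acts in the endoplasmic reticulum of muscle and other cells, 0.91 (adjusted p = 0.00776) for the mitochondrial Selenoo and 0.60 (adjusted p = 0.0391) for Selenos, a membrane protein of endoplasmic reticulum-associated degradation. The Selenos call held in 8 of 16 alternative fits (adjusted p up to 0.215) and that of Selenoo in 12 of 16, while those of Selenom, Msrb1 and Selenon held in all 16. With the trend on GC content and length removed, Selenoo was no longer called (0.40, edgeR adjusted p = 0.212), but Selenot (1.19, adjusted p = 0.000825), Selenof (0.54, adjusted p = 0.00818) and Selenok (0.67, adjusted p = 0.0191) were, so that 7 genes of the list were higher and 1 lower in both vesicle comparisons, beside 31.7% and 27.6% of all genes called in that fit. The gene that fell was Txnrd1, the cytosolic thioredoxin reductase, with 180.4 and 213.5 CPM in control, 222.4 and 241.3 CPM with dexamethasone and 122.7 and 120.5 CPM with the vesicles. Its log2 difference was -0.95 against dexamethasone (SE 0.132, edgeR adjusted p = 0.000202) and -0.71 against control (SE 0.187, adjusted p = 0.0179; called in 12 of 16 alternative fits), while its mitochondrial counterpart Txnrd2 passed in neither.

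The list of 13 other genes of selenocysteine incorporation and selenium supply was all in the table. None was called for dexamethasone against control (4 of 13 had an unadjusted p under 0.05, beside 10.9% of all genes tested), 2 rose and 2 fell for vesicles against dexamethasone, and 2 rose and 3 fell against control, with medians of -0.17, 0.02 and -0.07. Called genes were thus 4 of 13 and 5 of 13, near the 39.8% and 36.4% over all genes. Secisbp2l, the paralog of Secisbp2, was at 440.9 and 518.6 CPM in control, 391.6 and 461.5 CPM with dexamethasone, and 181.3 and 188.5 CPM with the vesicles. It fell by 1.22 on the log2 scale against dexamethasone (SE 0.133, edgeR adjusted p = 3.65e-05), whereas Secisbp2 did not pass.

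Sephs1, the paralog of Sephs2 that has no selenocysteine codon, was at 44.6 and 51.4 CPM in control, 34.5 and 31.1 CPM with dexamethasone, and 56.9 and 54.6 CPM with the vesicles. It rose against dexamethasone (0.75, SE 0.192, edgeR adjusted p = 0.00938) but did not pass against control (0.20, adjusted p = 0.525). Eif4a3, an RNA helicase of the exon junction complex that binds some SECIS elements, rose against both (0.77, edgeR adjusted p = 0.0201, and 0.94, adjusted p = 0.0292). Ncl (nucleolin), which also binds SECIS elements and acts mainly in ribosome production, fell against both, with log2 differences of -2.502 (edgeR adjusted p = 3.21e-07) and -2.96 (adjusted p = 9.15e-05). Against control, Lrp8, a receptor for SELENOP, rose by 0.89 (edgeR adjusted p = 0.0158), and Sars, the seryl-tRNA synthetase that charges the selenocysteine tRNA with serine, fell by 0.54 (adjusted p = 0.0459). Of 16 alternative fits, the Sars call held in 8 (adjusted p up to 0.292), that of Lrp8 in 11, and those of Eif4a3 in 10 against dexamethasone and 11 against control.

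With the trend removed neither Lrp8 nor Eif4a3 was called. Rpl30, a ribosomal protein that binds SECIS elements, was then called higher against dexamethasone (0.72, edgeR adjusted p = 0.00147) and control (0.94, adjusted p = 0.00223). Scly, which releases selenium from selenocysteine, was called lower against both (-1.24, edgeR adjusted p = 0.0121, and -1.38, adjusted p = 0.0328), and Sars also against dexamethasone (-0.39, adjusted p = 0.0447). The list then held 2 genes higher and 4 lower against dexamethasone, with a median of -0.39, and 1 higher and 4 lower against control, with a median of -0.11. In the same fit 31.7% and 27.6% of all genes were called, and their medians were 0.034 and 0.0018.

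**Figure D5:**
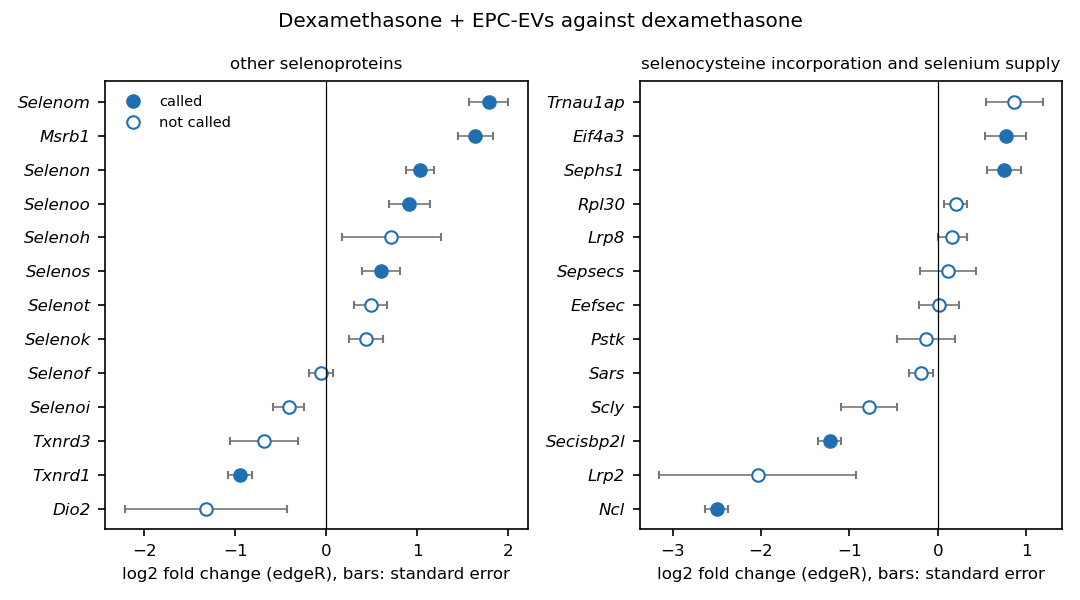
Log2 fold changes (horizontal axis; edgeR estimates with bars of 1 SE, filled where called) of the other selenoproteins (left) and of the genes of selenocysteine incorporation and selenium supply (right) for dexamethasone + EPC-EVs against dexamethasone. On the left 5 called genes lie above 0 and 1 below, and on the right 2 lie on each side.

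The genes whose levels followed those of Gpx4 most closely over the 6 libraries were Sbf1, Plxnb2 and Rpl13, with a Pearson r of log2 CPM of 0.9999, 0.9992 and 0.9990. For Selenop they were Gbp2, Nampt and Syncrip, with 0.9955, 0.9951 and 0.9925. They were picked among the 9223 genes that averaged 10 CPM or more, and the points share libraries, depth and GC dependence. An r above 0.95 with Gpx4 was found for 857 of these genes, and with Selenop for 256.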

How the data were processed

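Per the labels and the methods of the study, total RNA of 6 samples was made into libraries with the NEBNext Ultra RNA kit, reads were aligned to GRCm38 with HISAT2 set for stranded reads, and gene counts were made with HTSeq 0.6.1. The strand setting of the counting step is not given in the sources used here. The deposited table gives, for each gene, the raw count and the FPKM of the authors, which equals the count divided by 1 length per gene and by the library's summed counts (within 1% for all 21686 genes). The authors' processing notes also name DESeq2 1.26.0. A second deposited table, of transcript FPKM values by the authors, held none of these genes as given and was not used here.

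From the counts, libraries were scaled by TMM, genes filtered with filterByExpr, and each pair of groups fitted with edgeR 4.0.16 (robust quasi-likelihood F-test, R 4.3.3), with Benjamini-Hochberg adjustment over all genes tested. CPM values use TMM-scaled totals of all 6 libraries. Alternatives used DESeq2 1.42.0, limma 3.58.1 on log2(FPKM + 1) or log2(FPKM + 0.1), RLE or plain totals, no filter or a mean of at least 10 CPM, all 6 libraries in 1 fit, a replicate block, a loess trend (span 0.4) on GC content and length, the study's thresholds, leaving out each library and, added after seeing the data, levels per mean transcript length. Replicates of each group differed by more than sampling noise (chi-square over its degrees of freedom 17.2, 7.27 and 22.1 for control, dexamethasone and dexamethasone + EPC-EVs). GC content and annotation came from GENCODE vM21, in which 21646 of the genes were found. Encoded proteins were aligned pairwise with BLOSUM62. All 9 genes are named, as is every gene of the other lists that was called; those called only with the trend removed were added after their values were seen, as were the markers named singly. The genes and lists were chosen with earlier results of these data known. The precision of low values is limited by counting: the floor of 3 counts covers counting error only.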

Additional observations from a re-analysis of the deposited data

How the results depend on the processing

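Of 427 fold changes of the 9 genes under alternatives, 362 kept their direction and their side of the threshold, 5 kept their direction but had no adjusted p (DESeq2, dexamethasone against control), 20 lost the call, 18 gained it in the same direction and 22 changed sign, of which 2 were called (Gpx8 against dexamethasone with the trend removed, with and without the replicate block). Gpx4 with EPC-EVs kept its calls in all 16 alternative fits of both comparisons. Under the filter at a mean of 10 CPM, Txnrd2 was not tested in any comparison, nor Gpx7 and Sephs2 for dexamethasone against control. The precision is limited by 2 libraries a group and, for Gpx7 and Txnrd2, by few counts. A group left with 1 library was given the spread of the other group. The cause of a change was not tested except where named.

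Dexamethasone against control called 7 of all genes, but 134 with DESeq2, 248 without a filter, 43 with the replicate block, 31 with the GC and length trend removed, 348 with trend removal and the block together, 1 without mitochondrially encoded genes, 0 with limma at either pseudocount (182 at the study's thresholds, 0.05 for the unadjusted p and 1.5 for the log2 difference), and 9 to 2200 when 1 library was left out, the highest without control replicate 1 and 113 without control replicate 2. Of the 9 genes, 1 was called with DESeq2, without a filter and with trend and block (Gpx4 each time), and 0 to 3 when 1 library was left out. EPC-EVs against dexamethasone called 5397 of all genes and 5 of the 9, against 3379 with limma on log2(FPKM + 0.1), 1922 and 2 at the study's thresholds, and 3250 to 4813 and 2 to 5 when 1 library was left out (the lowest without dexamethasone replicate 2). EPC-EVs against control called 4916 and 4, against 3021 with limma on log2(FPKM + 0.1), 2793 at the study's thresholds, 2 of the 9 with trend and block, and 3375 to 6231 and 4 to 7 when 1 library was left out (the highest without control replicate 1).

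Signs changed as follows. For dexamethasone against control, Sephs2 (-0.04) was at 0.029 with library totals alone, 0.036 and 0.046 with limma on log2(FPKM + 1) and log2(FPKM + 0.1), and -0.22 to 0.19 over the fits without 1 library; Secisbp2, Gpx1 and Gpx8 ranged there over -0.012 to 0.50, -0.37 to 2.24 and -0.047 to 0.22. For EPC-EVs against dexamethasone, Gpx8 was at 0.68 with the trend removed and 0.69 with the block as well, and at -0.16 to 0.12 without 1 library. Selenow was at -0.24, -0.32 and -0.095 to 0.80 in the same fits, and Txnrd2 at -0.46 to 0.51 without 1 library. Against control, Selenow was at -0.16 with the trend removed and -0.25 with the block, Txnrd2 at -0.038 with the trend removed and -0.023 to 2.09 without 1 library, and Gpx8 at -0.039 to 0.18 without 1 library. By construction, removing the trend also removes any difference that follows GC content.

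The differences of replicate 1 and 2 correlated at 0.0619, 0.00732 and 0.0114 between groups. These correlations cannot tell whether samples with equal replicate numbers were handled in pairs. With the replicate block, 43, 5366 and 4679 of all genes were called in the 3 comparisons, and 0, 5 and 4 of the 9 genes.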
